A study of Mus musculus with 12 samples.

Results

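The NF-κB family and its feedback inhibitors were followed by 10 genes, chosen by name: the subunits Rela, Relb, Rel, Nfkb1 and Nfkb2, the IκB proteins Nfkbia, Nfkbie, Nfkbiz and Bcl3, and the deubiquitinase Tnfaip3 (A20). They are 10 of the 40220 genes listed in the cell and tumor tables together, and all 10 are listed in both. NF-κB is a family of dimeric transcription factors that classical IκB proteins such as those encoded by Nfkbia and Nfkbie hold in the cytoplasm. Signals from TNF, interleukin-1 and Toll-like receptors activate the IκB kinase, which marks these IκB proteins for destruction and frees the dimers to enter the nucleus. Several of the genes that the dimers then switch on, Nfkbia and Tnfaip3 among them, encode proteins that shut the signal off again.

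The study asked whether loss of the kinases CDK12 and CDK13 switches on STING signaling in prostate and other cancers and bears on their response to immune checkpoint blockade. Myc-CaP cells were derived from prostate cancer of a mouse with a human MYC transgene, and YJ1206 is a degrader that directs CDK12 and CDK13 to a ubiquitin ligase. Cultured Myc-CaP cells received YJ1206 at 1 μM for 24 hours or the solvent DMSO, and FVB mice with tumors of the same line under the skin were dosed orally with YJ1206 (100 mg/kg, 3 doses a week) or with vehicle. RNA was sequenced from 3 libraries in each of the 4 groups. All 4 groups thus derive from 1 cell line, and the tumor RNA is a mixture of cancer cells and host cells, in which fewer cells of a type and less RNA per cell cannot be told apart.

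Libraries held 13936902 to 26928365 gene counts. In cells, library numbers run separately for DMSO and YJ1206, and a batch of libraries cannot be told apart from the treatment. In each tumor group library 3 lay between libraries 1 and 2 for nearly all genes that differed between those 2, 98.1% of 3543 genes with vehicle and 97.1% of 1477 with YJ1206, against 52.4% to 81.6% for any library in cells, and so the calls among the members in tumors are also given for libraries 1 and 2 alone. Library 3 may thus not be an independent sample, which was not tested, and the tumor p-values and SDs may rest on fewer samples than the 3 they count. Summed TPM (transcripts per 1000000, scaled for gene length) of 4 general leukocyte genes was 0 to 0.081 in cells and 45.5 to 63.9 in tumors. The epithelial gene Epcam was at 0 in all 6 cell libraries, the only 1 of 4 epithelial genes at 0 throughout either cell group. Of the 4, 2 had over 3 counts in a library of DMSO cells and 3 in one of YJ1206 cells. Their summed TPM was 2.95 to 3.26 in DMSO cells and 25.0 to 26.4 in YJ1206 cells. Cdk12 transcript was higher with YJ1206 by 0.58 ± 0.035 (log2, SE) in cells and 0.35 ± 0.070 in tumors (edgeR adjusted p = 2.26e-14 and 0.0108, the latter 0.219 with tumor libraries 1 and 2 alone), and Cdk13 differed by 0.03 and 0.06 (adjusted p = 0.550 and 0.465).

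Short stretches of sequence near the RefSeq starts of Nfkbia, Tnfaip3 and Bcl3 are shown because these are the members that moved most in cells. Each also carries a κB motif, the DNA word that NF-κB dimers bind, close to that start. The sequences are from RefSeq on GRCm38.p6 and run 5′ to 3′ on the gene's own strand, the minus strand for all 3, with the motif in capitals. The stretches are chr12:55492648-55492784 for Nfkbia, chr10:19015411-19015547 for Tnfaip3 and chr7:19822744-19822892 for Bcl3.
Nfkbia: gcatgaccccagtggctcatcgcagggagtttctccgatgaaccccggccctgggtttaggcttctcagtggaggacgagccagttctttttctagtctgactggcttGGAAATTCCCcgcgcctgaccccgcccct
Tnfaip3: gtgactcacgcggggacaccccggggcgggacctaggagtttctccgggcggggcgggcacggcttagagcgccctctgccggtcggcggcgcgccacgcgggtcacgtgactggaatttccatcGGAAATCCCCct
Bcl3: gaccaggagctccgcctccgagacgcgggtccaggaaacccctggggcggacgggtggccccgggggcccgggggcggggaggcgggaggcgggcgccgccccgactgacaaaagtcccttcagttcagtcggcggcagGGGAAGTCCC

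Read on the opposite strand, the capitals spell GGGAATTTCC in Nfkbia, GGGGATTTCC in Tnfaip3 and GGGACTTCCC in Bcl3. They begin 29 bases and 12 bases before the RefSeq start in Nfkbia and Tnfaip3, and at the third base after it in Bcl3. The GENCODE vM21 annotation starts Tnfaip3 further upstream, at 19015657, and by it the printed Tnfaip3 stretch and its motif lie after the start. It starts Bcl3 at 19822770, within the printed Bcl3 stretch. The motifs GGGNNTTTCC and GGGNNTTCCC were searched on both strands of windows from 250 bases before to 50 after each start, and they can overlap, as in the GGGAAATCCCC of Rel. RefSeq windows matched 7 members, and Relb, Nfkb1 and Nfkbiz had none in the table. One or both motifs were present in 5 of these 7 genes (Nfkbia, Tnfaip3, Bcl3, Rel and Nfkb2). By window, they were in 7 of the 10 member windows and in 3.236% of all 32851 windows. A second window of Tnfaip3 (chr10:19011914-19012213) held neither motif. The motif is thus shared by genes whose transcripts rose and by genes whose transcripts fell in treated cells, and a match of letters does not show that a factor binds there.

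In DMSO-treated cells Rela, which encodes the main transactivating subunit p65, had the highest level of the 10 members, at 65.9 ± 1.69 TPM (SD, n = 3). It was followed by Nfkb1 (p105/p50) at 40.3 ± 1.04, Tnfaip3 at 28.1 ± 2.71 and Nfkbia at 20.5 ± 1.21 TPM. Nfkb2 (p100/p52) at 14.9 ± 0.518 and Bcl3 at 12.5 ± 1.77 TPM were the only neighbours in the order whose libraries overlapped. Below them came Nfkbiz at 9.83 ± 1.21, Rel (c-Rel) at 5.42 ± 0.432 and Relb at 1.04 ± 0.210 TPM, and Nfkbie was at the edge of detection with 3 or 4 counts in each DMSO library. The order thus set Rela and Nfkb1 far above Rel and Relb, which are best known from immune cells.

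**Figure D1:**
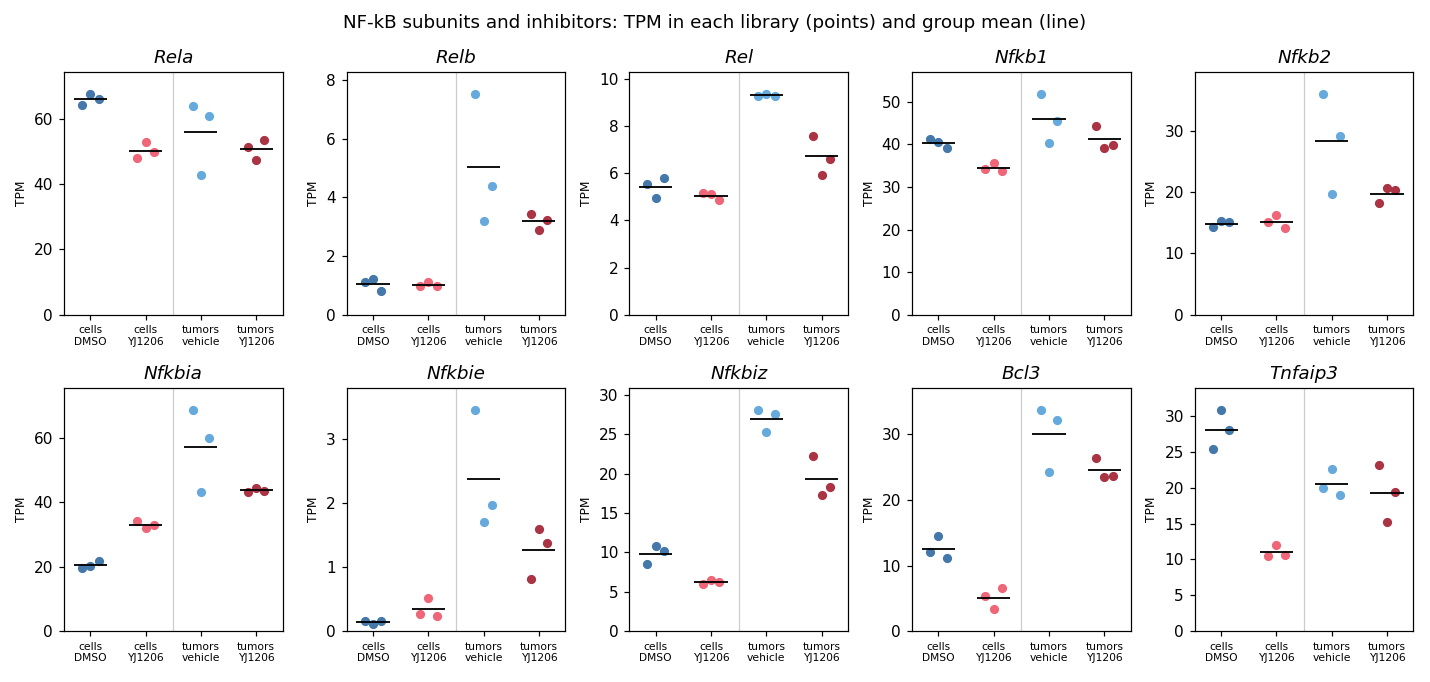
TPM (linear axis from 0, one axis per gene) of each of the 10 members in the 3 libraries of each group, with points for libraries and a line for the group mean. In cells Nfkbia sits higher with YJ1206 (32.1 to 34.1 TPM against 19.5 to 21.8), Tnfaip3 and Bcl3 sit lower, and in vehicle tumors library 2 stands apart from libraries 1 and 3 for Rela, Nfkb2, Nfkbia and Bcl3.

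The first comparison asked how the degrader changed these transcripts in cultured cells. With TMM scaling Nfkbia, which encodes IκBα, the inhibitor that NF-κB itself induces, doubled. Tnfaip3, which encodes the ubiquitin-editing enzyme A20, fell to 0.529 of its DMSO level and Bcl3 to 0.429. Nfkbiz, which encodes the nuclear IκBζ, and Rela fell by less. Of the 9 members that passed the filter on low counts, 4 were called higher and 4 lower at an edgeR adjusted p-value under 0.05, in a comparison in which 76.1% of all 11826 genes tested were called (37.8% higher and 38.3% lower). With total counts 2 members were called higher and 4 lower, and on the log2(TPM + 1) scale 1 and 5, while the share of all calls that were higher went from 49.7% to 36.1% and 29.2%. The share of called members is not far from the background, and the median log2 change of the 9 was 0.107 against -0.0172 over all genes.

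Nfkbia stood at 15.8, 16.3 and 17.5 CPM (counts per 1000000, after TMM scaling) in DMSO cells, against 34.1, 32.2 and 33.6 CPM after YJ1206. Its groups lay far apart, with a log2 change of 1.01 ± 0.074 (SE, edgeR adjusted p = 1.45e-12), or 2.01-fold. Tnfaip3 had 50.4, 54.0 and 51.7 CPM with DMSO and 27.0, 27.0 and 28.6 with YJ1206. Every treated library was thus well below every control, and the log2 change was -0.92 ± 0.059 (edgeR adjusted p = 8.85e-14). Bcl3, an unusual IκB that binds p50 and p52 dimers in the nucleus, had 11.1, 13.0 and 10.2 CPM with DMSO and 4.65, 4.08 and 6.0 with YJ1206. The groups did not overlap either, and the log2 change was -1.22 ± 0.14 (edgeR adjusted p = 1.41e-08), although Bcl3 lies under 2 antisense genes (Gm16175 and Gm16174) whose reads may not be separable from its own. Groups of 8 of the 9 tested members did not overlap in CPM, beside 77.5% of all genes.

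Nfkbiz, a cofactor needed for secondary response genes, had 17.8, 22.7 and 21.0 CPM with DMSO and 15.2, 16.5 and 16.3 with YJ1206, a log2 change of -0.36 ± 0.094 (edgeR adjusted p = 0.00126). Rela had 93.7, 96.4 and 96.9 CPM with DMSO and 84.7, 85.9 and 83.5 with YJ1206, a log2 change of -0.18 ± 0.039 (edgeR adjusted p = 0.000221). Both fell by less than Tnfaip3 and Bcl3, with no overlap between groups. Nfkbie, which encodes IκBε, was below the filter, at 4, 3 and 4 counts in control cells and 6, 11 and 5 in treated cells, and gets no test and no fold.

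The subunits that were called higher in cells rose by little and their calls depended on the scaling. Nfkb2 had 25.4, 27.4 and 26.7 CPM with DMSO and 33.5, 36.2 and 32.6 with YJ1206, a log2 change of 0.36 ± 0.067 (edgeR adjusted p = 2.23e-05), and on the log2(TPM + 1) scale 0.03 (limma adjusted p = 0.753). Rel changed by 0.20 ± 0.074 with TMM scaling (edgeR adjusted p = 0.0189), by 0.01 with total counts and by -0.09 on the TPM scale. Nfkb1 changed by 0.11 ± 0.044 with TMM (edgeR adjusted p = 0.0314), by -0.08 with total counts (adjusted p = 0.10) and by -0.22 on the TPM scale (limma adjusted p = 0.00272), so its direction turned. Relb, with 19 to 28 counts per library, changed by 0.28 ± 0.31 (edgeR adjusted p = 0.414) and by -0.01 on the TPM scale. The scalings moved the median of all genes from -0.0172 (TMM) to -0.204 (total counts) and -0.245 (TPM), and under all of them Nfkbia was higher and Rela, Nfkbiz, Bcl3 and Tnfaip3 were lower with YJ1206. The sizes moved as well. With total counts and on the log2(TPM + 1) scale Nfkbia changed by 0.82 and 0.67, and Tnfaip3 by -1.10 and -1.27. Bcl3 changed by -1.41 and -1.19.

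**Figure D2:**
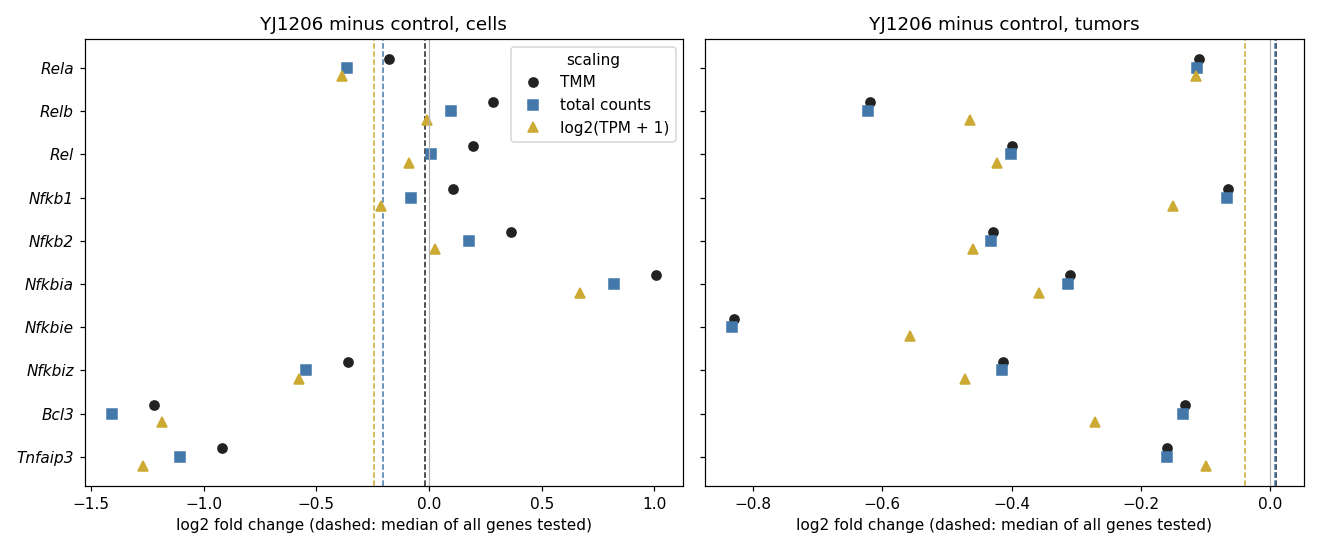
Log2 fold change (YJ1206 minus control) of each member with TMM scaling, total counts and log2(TPM + 1), in cells (left) and tumors (right), each panel with its own linear axis; the dashed lines mark the median of all genes tested under the same scaling. In cells the points of Relb, Rel and Nfkb1 straddle 0, those of Nfkbia lie right of 0 and those of Rela, Nfkbiz, Bcl3 and Tnfaip3 left of it.

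Ratios within a library do not depend on the scaling between libraries. They were chosen after the values were seen and carry no test. Nfkbia per Rela was 0.303, 0.298 and 0.331 with DMSO and 0.713, 0.608 and 0.664 with YJ1206 (ratio of TPM), and Tnfaip3 per Rela was 0.396, 0.457 and 0.425 with DMSO and 0.220, 0.227 and 0.215 with YJ1206. The 2 brakes thus moved apart relative to the subunit they restrain, and there was more Tnfaip3 than Nfkbia in each DMSO library and more Nfkbia than Tnfaip3 in each YJ1206 library. In tumors Nfkbia per Rela was 1.07, 1.01 and 0.990 with vehicle and 0.842, 0.933 and 0.818 with YJ1206, lower and without overlap, whereas Tnfaip3 per Rela overlapped (0.312 to 0.529 and 0.321 to 0.452).

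The makeup of the 5 subunits, as shares of their summed TPM, differed between the groups. In cells Rela held 50.8%, 52.2% and 52.0% with DMSO and 46.3%, 47.6% and 48.0% with YJ1206. Nfkb2 held 11.3%, 11.8% and 11.9% with DMSO and 14.6%, 14.7% and 13.7% with YJ1206, while its mean level was 14.9 and 15.2 TPM. The mean shares of Relb and Rel were 0.818% and 4.25% with DMSO and 0.968% and 4.75% with YJ1206, but these differences shrink to 0.059 percentage points for Relb without DMSO library 3 and to 0.28 for Rel without DMSO library 2, and only the share of Nfkb1 overlapped between groups, 30.9% to 32.6% against 32.1% to 33.2%. With 3 libraries against 3 an exact test cannot give a two-sided p below 0.1, so these shares are given without one. In tumors the direction was the opposite: Rela held 38.5% on average with vehicle and 41.7% with YJ1206, without overlap, and Nfkb2 19.3% and 16.3%, with overlap.

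**Figure D3:**
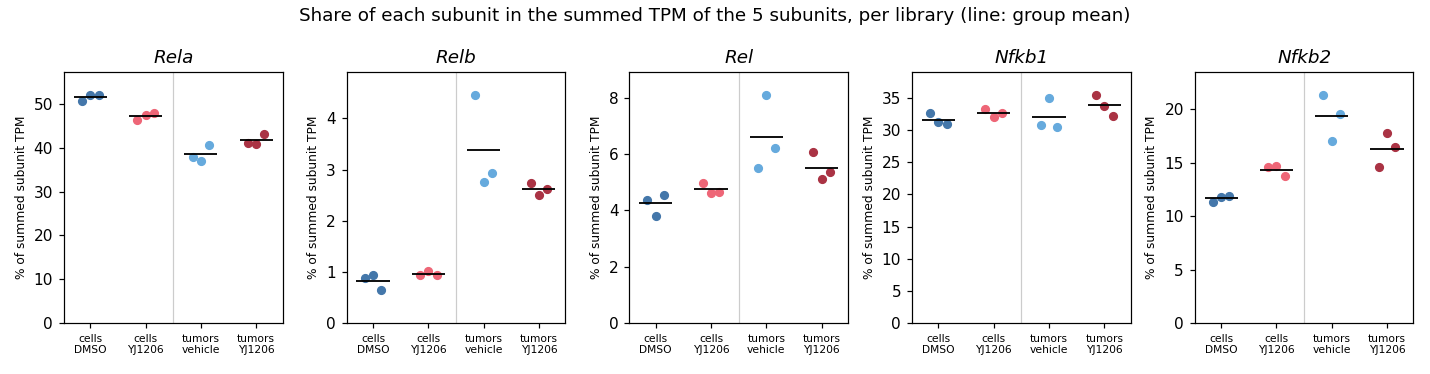
Share of each subunit in the summed TPM of the 5 subunits (percent, linear axes from 0), with points for libraries and a line for the group mean. Rela drops from 50.8% to 52.2% with DMSO to 46.3% to 48.0% with YJ1206 in cells, and all tumor libraries lie below that, at 37.0% to 43.2%.

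The second comparison asked the same of tumors. Rel and Nfkbiz were lower with YJ1206, each to about 0.75 of its vehicle level, and no other member was called. The fitted change was below 0 for all 10 members, against 49% of all genes tested, and their median was -0.355 against 0.00914 over all genes. Without vehicle library 1 the median was -0.201 and Nfkb1 was at 0.025. The 2 calls are set beside a background of 26.8% of 15558 genes called (11.9% higher and 14.9% lower). They were lost with libraries 1 and 2 alone, where edgeR called 0 members (1 at an unadjusted p under 0.05) and 1 gene in all. Both calls were also lost without vehicle library 3, YJ1206 library 2 or YJ1206 library 3 (adjusted p = 0.0516 to 0.0823).

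Rel had 42.2, 44.4 and 42.6 CPM in vehicle tumors and 36.5, 29.3 and 32.2 in YJ1206 tumors, a log2 change of -0.40 ± 0.093 (edgeR adjusted p = 0.0184). Nfkbiz had 61.1, 56.8 and 60.1 CPM with vehicle and 50.6, 40.7 and 42.4 with YJ1206, a log2 change of -0.41 ± 0.094 (edgeR adjusted p = 0.0173). The vehicle libraries were close together for these 2 genes and every YJ1206 library was lower. With libraries 1 and 2 alone the log2 changes were -0.40 and -0.37 (adjusted p = 0.251 and 0.266). The estimated counts of Rel were not whole numbers in any of the 12 libraries (tolerance 0.01), as they are when reads are shared out between features, so its values hold reads that may belong elsewhere. Those of Relb were not whole in 4 of the 12 libraries. By the same tolerance those of Bcl3, Nfkb1 and Nfkb2, which overlap other genes, were whole in all 12.

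Nfkbie was lower in every YJ1206 tumor, at 1.2, 2.37 and 2.06 CPM against 4.82, 2.48 and 2.78, but its log2 change of -0.83 ± 0.35 was not called (edgeR adjusted p = 0.119). Rel, Nfkbie and Nfkbiz were the 3 members of 10 whose groups did not overlap in CPM, beside 44.6% of all genes. Nfkbia had 58.7, 38.6 and 51.9 CPM with vehicle and 39.1, 41.1 and 40.0 with YJ1206, a log2 change of -0.31 ± 0.15 (edgeR adjusted p = 0.157). Vehicle library 2 lay at the level of the treated tumors while libraries 1 and 3 lay above them, and the same held for Nfkb2, at 68.2, 38 and 54.7 CPM with vehicle and 36.3, 41.5 and 41.6 with YJ1206 (log2 change -0.43 ± 0.20, edgeR adjusted p = 0.147). Without that library 7 of 10 members were called lower, the 5 further ones being Rela, Relb, Nfkb2, Nfkbia and Nfkbie, beside 36.2% of all genes (5724 of 15810). Without vehicle library 1 the changes were smaller, at -0.19 for Relb, -0.21 for Nfkb2, -0.17 for Nfkbia and -0.47 for Nfkbie, and Rel and Nfkbiz remained the 2 called. Relb (-0.62 ± 0.32), Rela (-0.11 ± 0.12), Nfkb1 (-0.07 ± 0.094), Bcl3 (-0.13 ± 0.15) and Tnfaip3 (-0.16 ± 0.13) had adjusted p-values of 0.194 to 0.650 with all libraries. With libraries 1 and 2 alone the members other than Rel and Nfkbiz had log2 changes of -1.01 (Nfkbie) to -0.05 (Nfkb1) and adjusted p-values of 0.332 to 0.874.

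Some markers of host cells differed between the same libraries. Summed TPM of 4 skeletal muscle genes was 583, 15.4 and 356 in the vehicle tumors and 7.13 to 9.59 in the YJ1206 tumors, and summed TPM of 6 fibroblast genes was 729, 220 and 526 with vehicle and 159 to 359 with YJ1206. All 3 muscle genes tested were called lower, and 0 of the 6 fibroblast genes, whose sums overlap. Vehicle library 2, the one that stood apart for Nfkbia and Nfkb2, was the lowest of its group in both sums. Summed TPM of 6 neutrophil genes was 28.0, 21.0 and 28.1 with vehicle and 11.8 to 17.4 with YJ1206, with 1 of the 4 genes tested called lower. The macrophage sum overlapped (531, 341 and 453 with vehicle and 387 to 507 with YJ1206), with 3 of 8 genes called higher. Vehicle library 2 was the lowest of its group in these sums too. This did not hold for every cell type, as its T cell sum was the highest (9.09, 12.1 and 9.38 with vehicle). In cells the neutrophil sum was at most 1.01 and the leukocyte gene Ptprc was at 0. The part of these cells in the tumor values of the members was not tested.

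**Figure D4:**
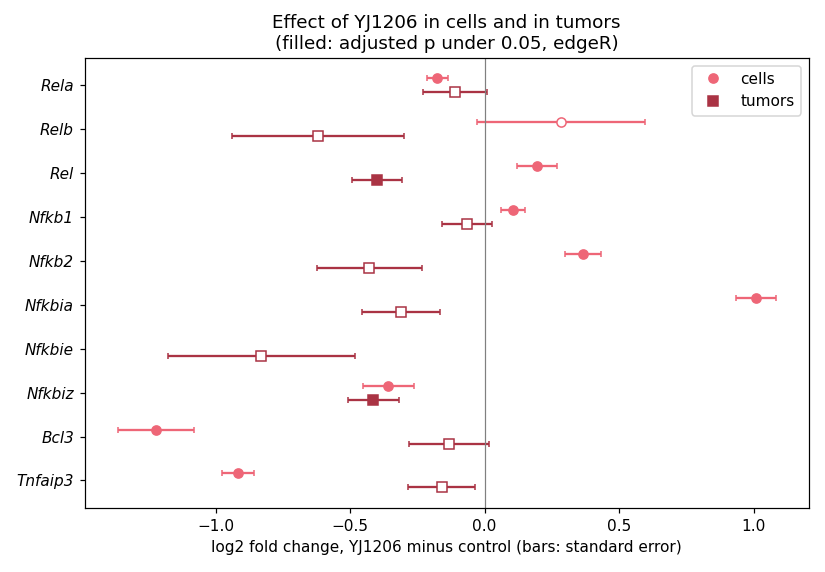
Log2 fold change (YJ1206 minus control, linear axis) of each member in cells (circles) and tumors (squares), with bars for the standard error and filled symbols for an edgeR adjusted p-value under 0.05; Nfkbie has no point in cells, where it was not tested. The tumor points all lie left of 0, whereas the cell points run from -1.22 for Bcl3 to 1.01 for Nfkbia.

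The third comparison tested whether the effect of YJ1206 differed between tumors and cells, as the interaction term of 1 edgeR fit over all 12 libraries. Of the 9 members tested in both materials 5 were called, beside 46.8% of 15328 genes (20.9% higher and 26.0% lower in tumors). The fit shares its estimate of spread between cells and tumors, whose own coefficients of variation between libraries were 0.0322 and 0.139. With tumor libraries 1 and 2 alone these 5 stayed called, beside 38.8% of all genes, where the tumor fit called 1 gene. Their persistence thus does not show that the tumor effects were stable. For Nfkbia the difference, tumor effect minus cell effect, was -1.35 ± 0.18 (log2, SE, adjusted p = 3.34e-05). Rel (-0.63 ± 0.12, adjusted p = 0.000617) and Nfkb2 (-0.82 ± 0.23, adjusted p = 0.00924) also differed toward lower in tumors, and both were lost on the log2(TPM + 1) scale (limma adjusted p = 0.0728 and 0.112). Nfkbie was below the filter in cells and passed the joint one only through the tumors, so that its fitted difference is not counted here. Bcl3 and Tnfaip3 differed the other way, by 1.06 ± 0.24 and 0.73 ± 0.14 (adjusted p = 0.00232 and 0.000677), since their fall in cells was the larger. For Rela, Relb, Nfkb1 and Nfkbiz the difference was not called (0.04 ± 0.13, -0.94 ± 0.45, -0.20 ± 0.11 and -0.09 ± 0.14, adjusted p = 0.112 to 0.883). Cells and tumors also differed in dose, route, duration and host cells, which cannot be told apart here.

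The untreated levels of the 2 materials differed in their order. In vehicle tumors Nfkbia (57.3 ± 12.9 TPM), Rela (55.8 ± 11.4) and Nfkb1 (45.9 ± 5.73) led with overlapping libraries, and Bcl3 (30.1 ± 5.04), Nfkb2 (28.3 ± 8.19) and Nfkbiz (27.0 ± 1.48) followed, again overlapping. Tnfaip3 (20.5 ± 1.85 TPM), Rel (9.30 ± 0.0489), Relb (5.03 ± 2.24) and Nfkbie (2.38 ± 0.943) were lowest, with only Relb and Nfkbie overlapping. The ratio of mean TPM in vehicle tumors to DMSO cells was 4.82 for Relb (19 to 28 counts per library in cells) and 2.80 for Nfkbia. It was 2.75 for Nfkbiz, 2.40 for Bcl3, 1.90 for Nfkb2, 1.72 for Rel and 1.14 for Nfkb1, and below 1 for Rela (0.847) and Tnfaip3 (0.730). Nfkbie, at the edge of detection in cells, had 16.7. The tables were scaled separately and these ratios carry no test. Sums of leukocyte, fibroblast and endothelial genes were also higher in tumors, and their part in these ratios was not tested.

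The remaining genes of the pathway were read as lists of receptors, ligands, adaptors and kinases, other inhibitors and target genes, 86 genes in all. In cells 61 were tested, of which 29 were called higher and 21 lower, with a median log2 change of 0.147. The share called, 82.0%, is near the 76.1% over all genes, and the directions depend on the scaling: with total counts 23 were higher and 23 lower, with a median of -0.0388, and on the log2(TPM + 1) scale 19 and 24, with a median of -0.0658. The lists are described by these counts with no test. Of 10 receptors tested 2 were called higher and 5 lower: the interleukin-1 receptor Il1r1 (0.452-fold), the TWEAK receptor Tnfrsf12a (0.567) and the lymphotoxin receptor Ltbr (0.644) fell, and the co-receptor Il1rap rose 1.61-fold. None of the 9 ligands reached the filter. Of the 21 adaptors and kinases 9 were higher and 10 lower. Myd88, the adaptor of Toll-like and interleukin-1 receptors, rose 2.57-fold, and the kinase genes Irak4 (0.539-fold), Irak1 (0.604) and Ikbke (0.559) were among those that fell.

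Other inhibitors in cells were called higher in 7 of 12 and lower in 3, with a median of 0.315. With total counts 5 were higher and 4 lower, with a median of 0.129. On the log2(TPM + 1) scale the counts were also 5 and 4, with a median of 0.0105. Tax1bp1 (2.33-fold) and Tnip1 (2.28-fold), which encode partners through which A20 acts, and Nfkbib (2.22-fold), which encodes IκBβ, rose. Tax1bp1 and Tnip1 thus rose where Tnfaip3 itself fell, but they are named for the size of their change and do not stand for all partners of A20. Cyld, a deubiquitinase that acts like A20 on the same signaling complexes, fell to 0.544 of its level. Target genes were called higher in 11 of 18 and lower in 3, with a median of 0.405, beside 37.8% and 38.3% of all genes. On the log2(TPM + 1) scale 6 were higher and 3 lower, with a median of 0.121. Gadd45b, a stress gene, rose 14.0-fold (17.8 to 249 CPM) and Plau, which encodes urokinase, 2.75-fold, while Ptgs2, which encodes cyclooxygenase 2, fell to 0.288 of its level (350 to 101 CPM). Lcn2, an iron-binding acute phase gene, went from 3, 1 and 3 counts to 52, 42 and 40. The chemokine gene Cxcl10 went from 0, 0 and 1 counts to 11, 18 and 25; it was singled out after its values were seen, as its point stands far right in the plot of the lists. These genes also answer to other pathways, and NF-κB activity was not measured.

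**Figure D5:**
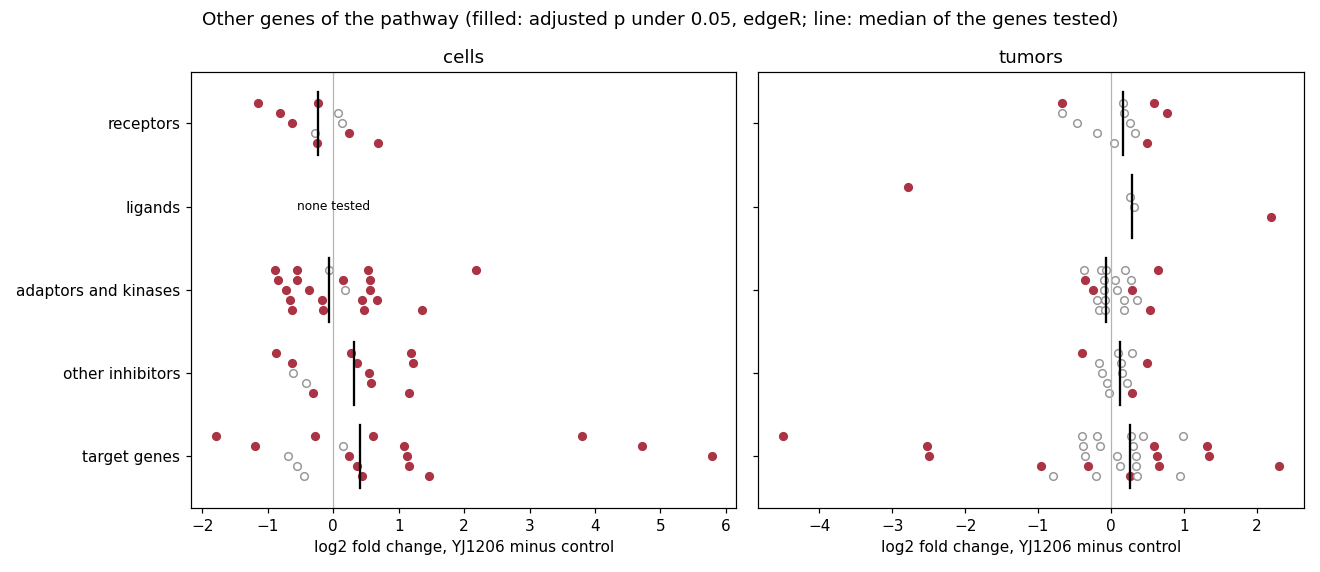
Log2 fold change (YJ1206 minus control, linear axes that differ between panels) of each tested gene of the 5 pathway lists in cells (left) and tumors (right); filled points have an edgeR adjusted p-value under 0.05 and the black line is the median of the genes tested in the list. In cells 50 of 61 points are filled and run to both sides, and in tumors 26 of 78 are.

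In tumors 16 of 78 tested pathway genes were called higher and 10 lower, with a median of 0.131. The share called, 33.3%, stands beside 26.8% over all genes (11.9% higher and 14.9% lower), and on the log2(TPM + 1) scale 9 were higher and 11 lower. As 1 gene in all was called with libraries 1 and 2 alone, these calls rest on all 3 libraries. Il1b, the gene of interleukin-1β and a transcript of myeloid cells, had 76, 75 and 38 counts with vehicle and 11, 8 and 6 with YJ1206, or 0.146-fold. The neutrophil sums were lower and the macrophage sums overlapped, and the part of either cell type in Il1b was not tested. Ptgs2 fell as in cells (273 to 48.3 CPM, 0.177-fold), and C3, the central complement gene, fell to 0.174 of its level with vehicle library 2 (2.72 TPM) among the treated tumors (2.32 to 2.81). Lcn2 rose 4.92-fold, but its vehicle libraries lay far apart (51.4, 247 and 131 TPM, against 538, 789 and 702 with YJ1206). Cxcl10 rose 2.53-fold on few counts, 13, 33 and 8 with vehicle and 34, 63 and 28 with YJ1206 (edgeR adjusted p = 0.0489). Among upstream genes Tlr3 (1.70-fold), Tlr4 (1.5), Tnfrsf11a (1.41), Irak2 (1.56), Birc2 (1.45) and Ikbkg (1.22) rose, and Tnfrsf12a (0.625) and Chuk (0.778), which encodes the IκB kinase subunit IKKα, fell. Of the inhibitors Tnip1 (1.41-fold) and Rnf11 (1.22) rose and Nfkbib (0.761) fell. These changes are small, and the edgeR adjusted p was 0.0456 for Nfkbib and 0.0368 for Birc2. On the log2(TPM + 1) scale 0 of the 12 other inhibitors tested were called higher and 2 lower. Of the 21 adaptors and kinases 1 was called higher and 2 lower there. Il6 had 58, 16 and 27 counts with vehicle and 2, 2 and 0 with YJ1206, and Tnf had 11, 3 and 4 with vehicle and 29, 32 and 18 with YJ1206; both were singled out after their values were seen.

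Members sat in genes of very different span (GENCODE vM21, GRCm38), from 3.24 kb for Nfkbia to 107 kb for Nfkb1. All 10 are annotated as protein coding, and values count reads over their exons. On the minus strand lie Nfkbia (chr12:55489410-55492647), Tnfaip3 (chr10:19000910-19015657), Bcl3 (chr7:19808462-19822770), Rel (chr11:23736847-23770970) and Nfkbiz (chr16:55811375-55838899), and on the plus strand Rela (chr19:5637483-5648130) and Nfkb2 (chr19:46304320-46312385). Nfkb2 overlaps Psd and AC114539.1 on the opposite strand and Nfkb1 overlaps Gm43430 on its own strand, and as the strand used in counting is not given, reads from these partners cannot be told apart with certainty. In cells the median log2 change over all genes was 0.099 for the 1648 genes under 5 kb and -0.096 for the 1296 over 100 kb. Between them it did not fall steadily, at -0.034 (5 to 20 kb), -0.006 (20 to 50 kb) and -0.018 (50 to 100 kb). Nfkbia lies in the class under 5 kb, and changed by 1.01. Nfkb1 lies in the class over 100 kb and changed by 0.11 with TMM scaling, a direction that turned with total counts. Bcl3 (14.3 kb) and Tnfaip3 (14.7 kb) lie in the class of 5 to 20 kb.

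For each member tested in both tables, the gene with the most similar pattern over the 12 libraries (Pearson r of log2(TPM + 1), centred within cells and within tumors, among 11235 genes) was taken as a description. The closest pairs were Tnfaip3 with Kif3b (r = 0.985), Nfkbia with Twnk (0.984), Nfkb2 with Pygm (0.976) and Nfkb1 with Tshz1 (0.975). Bcl3 paired with Hdac10 and Rela with 2700081O15Rik (both 0.973), Rel with Gabpa (0.971), Nfkbiz with Kcnf1 (0.969) and Relb with Pank2 (0.949). Within cells r was 0.637 for Nfkb2 with Pygm and 0.714 for Relb with Pank2, and within tumors 0.71 for Bcl3 with Hdac10. All other values within 1 material were 0.849 or higher. None of these partners is a member, each is the best of 11235 genes, and the points share libraries and depth.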

How the data were processed

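RNA was measured in 12 Myc-CaP libraries, 3 per group, after enzymatic removal of ribosomal RNA (the labels name polyA RNA for cells and total RNA for tumors). The authors quantified reads with kallisto (version not given) and, per the labels, builds GRCm38 and mm10, and deposited estimated counts per gene and TPM scaled to 1000000 per library; the counting strand and annotation release are not given in the sources used here. Estimated counts were rounded. Within each table edgeR 4.0.16 (R 4.3.3; filterByExpr, TMM, quasi-likelihood F-test) compared YJ1206 with control over all genes that passed the filter, with Benjamini-Hochberg adjustment at 0.05. The interaction used the 34365 genes in both tables before filtering. Totals were 13936902 to 18519926 counts in cells and 15391544 to 26928365 in tumors; 3 counts, the floor for detection, equal 0.111 to 0.215 CPM. Alternatives were DESeq2 1.42.0, its size factors, total counts, no filter, limma 3.58.1 on log2(TPM + 1) or log2(TPM + 0.1), a replicate block, leaving out each library, and tumor libraries 1 and 2 alone. Steps were tested on simulated data. All 10 members are named; of each pathway list, at most 4 genes per comparison with the largest change among those called, at 1 CPM or more on average and without overlap, are named, and for each member its most similar gene. The members and lists were chosen with earlier results of these data known. The study describes all its data as coming from independent biological replicates. The labels do not say whether tumor libraries come from separate mice, so p-values measure the spread between libraries. Two-sided tests were used throughout.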

Additional observations from a re-analysis of the deposited data

Results flagged for a closer look

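The effect of YJ1206 differed between tumors and cells for 5 of the 9 members tested in both, by a test of the difference itself (edgeR interaction term, tumor effect minus cell effect, log2). The difference was -0.63 for Rel, -0.82 for Nfkb2 and -1.35 for Nfkbia, and 1.06 for Bcl3 and 0.73 for Tnfaip3. Nfkbia was called in cells and not in tumors, and Rel was called in both with opposite signs under TMM scaling, although in cells its sign turned on the log2(TPM + 1) scale. The fit also gave -2.38 for Nfkbie, on 11 and 22 counts in cells, where it was below the filter; it entered the fit only through the tumor libraries, and the value supports no difference.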

How the results depend on the processing

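Nfkbia, Tnfaip3, Bcl3, Nfkbiz and Rela kept their direction and call in cells under all alternatives run, and the called differences between materials of the 5 members tested in both kept theirs except Rel and Nfkb2 on the TPM scale. In cells Nfkb1 turned with total counts (-0.079), and Relb, Rel and Nfkb1 with limma on log2(TPM + 1) (-0.0082, -0.087, -0.22) and on log2(TPM + 0.1) (-0.0080, -0.10, -0.22); the scaling moves the median of all genes in the same direction. In tumors Nfkb1 turned without vehicle library 1 (range without 1 library -0.13 to 0.025). The difference for Rela turned with DESeq2 size factors (-0.0034), the DESeq2 test (-0.0040) and without vehicle library 2 (range -0.11 to 0.14), that for Nfkb1 with total counts (0.015) and TPM (0.065 and 0.068), and that for Nfkbiz with total counts (0.13), TPM (0.10 and 0.15) and without DMSO library 1 (range -0.18 to 0.0089); none was called. Beyond the scaling, the causes were not tested. Tumor libraries 1 and 2 alone gave 1 called gene and 0 called members, against 4176 and 2 with all libraries; DESeq2 called 4359 and 2 with all libraries. Leaving out 1 library at a time gave 8622 to 8824 calls in cells (7 to 8 members), 1877 to 5724 in tumors (0 to 7 members) and 6594 to 7636 for the difference (6 to 8 members, Nfkbie included). In cells Rel was lost without DMSO library 2, and Nfkb1 without DMSO library 3, YJ1206 library 2 or YJ1206 library 3. Nfkb1 was also lost with the DESeq2 test (adjusted p = 0.0531) and with no filter on low counts (edgeR adjusted p = 0.0970). The number of neighbouring members in the order of levels with overlapping libraries, 1 in DMSO cells, was 2 with CPM in place of TPM, and leaving out 1 library gave 0 to 1 in DMSO cells, 1 to 2 in YJ1206 cells (3 with all), 2 to 5 in vehicle tumors (5 with all) and 1 to 3 in YJ1206 tumors (3 with all). Subunit shares without overlap in tumors, 2 of 5, were 1 with CPM and 2 to 4 without 1 library. Same-numbered libraries of the 2 groups did not deviate together (correlations -0.0289 to 0.0102), so the numbers do not pair them; with the replicate number as a block 8905, 3477 and 6853 genes were called in cells, in tumors and for the difference, with 8, 2 and 6 members, Nfkbie included in the last. In cells, low counts limit Nfkbie and Relb.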
